A study of Mus musculus with 49 samples.

Results

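RNA from sorted nuclei was compared with RNA from tagged ribosomes of D1-type medium spiny neurons (D1-MSNs) of the mouse nucleus accumbens (NAc). The 12 libraries were chosen by their column names in the deposited counts, which label 6 as nuclear D1 male and 6 as RiboTag D1 male, and they are 12 of the 49 columns of the whole series. The series also holds whole cell libraries, D2-type neurons and libraries from females, of which 11 male D2 libraries (5 nuclear, 6 RiboTag) were used here for a test of the difference between cell types. Every library stands for 1 mouse of the strain C57BL/6J, with no treatment and no age given in the labels. The mice of the nuclear group were heterozygous Drd1-cre x Thy1-loxPSTOPloxP-EGFP-F animals, in which Cre made under the Drd1 promoter switches on a GFP label in nuclei. Their frozen tissue was broken up in a glass douncer, nuclei were taken through a sucrose gradient, and GFP-labelled nuclei were sorted. The mice of the RiboTag group were Drd1-cre x Rpl22-loxPexon4loxP-exon4-HA animals, in which the same Cre driver switches the last exon of the ribosomal protein gene Rpl22 for a copy with an HA tag, and ribosomes were pulled down from fresh tissue by that tag. The mouse line, the state of the tissue, and sorting or immunoprecipitation therefore change together with the compartment, and their parts in any difference cannot be told apart. The D2 libraries came from Drd2-cre x Thy1-loxPSTOPloxP-EGFP-F (nuclear, heterozygous) and Drd2-cre x Rpl22-loxPexon4loxP-exon4-HA (RiboTag) mice. The Cre driver line thus changes together with the cell type.

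The nucleus holds RNA while it is made and spliced, so that it is rich in introns of long genes and in RNAs that stay there, such as the architectural RNA Malat1 and the small nucleolar RNAs that guide modification of ribosomal RNA. Finished mRNAs leave for the cytoplasm, where those being read sit on ribosomes. MSNs are the GABAergic output neurons of the striatum, and the D1 type carries the dopamine receptor Drd1 and the peptides dynorphin (Pdyn) and substance P (Tac1), while the D2 type carries Drd2, the adenosine receptor Adora2a and enkephalin (Penk).

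Counts were made over whole gene bodies, introns included, without regard to strand. Total counts ranged from 3837701 to 68777008 in nuclear libraries (median 6964784.5) and from 27100569 to 43089016 in RiboTag libraries. Levels are given in CPM, a gene's share of the library size after TMM, which is edgeR's scaling of library sizes on the bulk of the genes. On this scale 3 counts correspond to 0.0151 to 0.484 CPM in nuclear and 0.179 to 0.25 CPM in RiboTag libraries, which covers counting error only. A log2 fold change is nuclear minus RiboTag, and a gene was called when its adjusted p was at most 0.05 and its log2 fold change was beyond 0.38 in either direction.

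The make-up of the libraries differed before any single gene was compared. In RiboTag libraries 87.3% ± 0.719 (SD, n = 6) of counts lay on the 10 highest genes, against 44.3% ± 21.9 (SD, n = 6) in nuclear libraries, and the groups did not overlap (exact permutation test, two-sided, p = 0.00216, adjusted over 8 measures p = 0.00216, the smallest p that 6 against 6 can give). Most of this lay on CT010467.1, Gm42418 and AY036118, 3 overlapping genes on chromosome 17 that cover ribosomal RNA sequence, with 71.6 to 75.1% of RiboTag and 16.4 to 55.9% of nuclear counts. A fragment on overlapping genes was counted for each, so that these and the other shares are of counts, not of separate fragments. Genes spanning at least 100 kb took 33.8% ± 13.1 (SD, n = 6) of nuclear and 12.8% ± 0.724 (SD, n = 6) of RiboTag counts (exact permutation test, p = 0.00216). Mitochondrial genes took 0.863% ± 0.728 (SD, n = 6) of nuclear and 0.0522% ± 0.00943 (SD, n = 6) of RiboTag counts (exact permutation test, p = 0.00216), a difference no longer past the threshold when the highest genes were left out (adjusted p = 0.182). A count was recorded on 32028 ± 8012 (SD, n = 6) against 21500 ± 699 (SD, n = 6) genes (exact permutation test, p = 0.00216). Nuclear libraries 1, 5 and 6 lay nearer to the RiboTag libraries than nuclear libraries 2, 3 and 4 in the shares of the 10 highest and of the long genes, and held the most mitochondrial counts. Background, estimated from counts per kilobase on 1703 olfactory and vomeronasal receptor genes, came to 21.97% of counts in nuclear library 3, 10.9% in library 4 and 7.27% in library 6, down to 0.530% in library 1, and to 0.0269 to 0.0352% in RiboTag libraries.

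**Figure D1:**
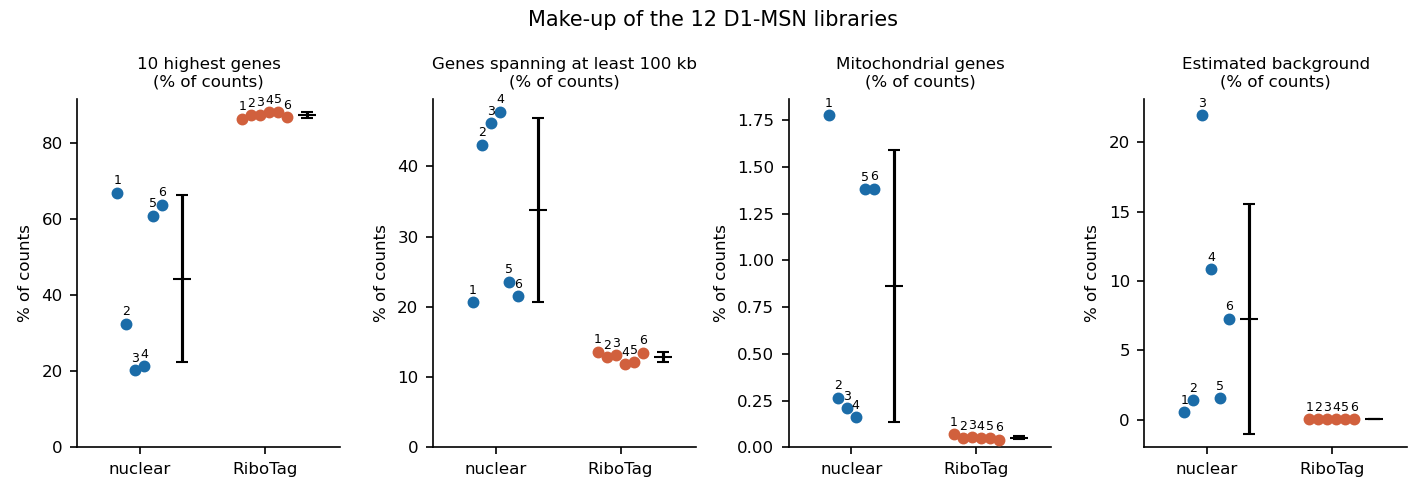
Share of counts in the 12 D1-MSN libraries (y axes, percent of all counts) on the 10 highest genes, on genes spanning at least 100 kb, on mitochondrial genes and in estimated background. Points are libraries with their replicate numbers, and bars show the mean ± SD (n = 6). RiboTag libraries lie close together, at 87.3% ± 0.719 for the 10 highest genes, while nuclear libraries spread from 20.3 to 66.9%.

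Of 25792 genes with more than 1 FPM (CPM on the library totals) in at least 2 libraries, 13791 (53.5%) were higher in nuclear and 6528 (25.3%) in RiboTag libraries. The groups did not overlap, with all nuclear above all RiboTag libraries, in 6201 genes (24.0%), and with RiboTag above nuclear in 5369 (20.8%). The protein-coding genes were less one-sided than the long non-coding ones. Among 17674 protein-coding genes 45.9% were higher in nuclear and 31.8% in RiboTag libraries, and among 5539 long non-coding genes 69.1% and 11.8%. A total of 15439 genes passed the filter, which is set on library totals, through the nuclear libraries alone, and that favours higher nuclear values among them. In both groups the filter was passed by 9213 of the protein-coding and 830 of the long non-coding genes. The shares of these classes therefore cannot be compared like for like. Among the 10242 genes that passed the filter in both groups, 20.0% were called higher in nuclear and 58.4% in RiboTag libraries.

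The scale sets where a difference of 0 lies. With library totals in place of TMM, every log2 fold change shifted up by 2.64 in the median, since the chromosome 17 loci then count in the RiboTag totals, and 91.2% of genes were called higher in nuclear and 0.973% in RiboTag libraries. With DESeq2 size factors the shift was 0.25, and with totals left after removing the 10 highest genes of each group 0.39. Differences are therefore given on the TMM scale and read against the median of all genes tested, 1.41 (0.51 for protein-coding genes). For the protein-coding genes that passed the filter in both groups the median was -0.73. The counts with library totals stand beside most gene lists. The order of groups along this axis is the measurement, not the place of 0.

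Among protein-coding genes tested, the median log2 fold change was highest for the longest genes. Those spanning 500 kb or more had a median of 2.19, with 209 of 230 (90.9%) higher in nuclear and 5 higher in RiboTag libraries, and those of 1 to 5 kb had a median of -1.03, with 300 of 1461 (20.5%) and 733 higher. In between, the medians were 0.03 at 5 to 10 kb, 0.51 at 20 to 50 kb, 1.03 at 100 to 200 kb and 1.55 at 200 to 500 kb. The gap between the medians of the longest genes and of those of 1 to 5 kb, 3.22, fell to 0.25 without a filter on low counts and to 0.41 in a fit of all 23 libraries, whose filter kept more genes. In that fit genes of 5 to 10 kb had a D1 median of 2.31, above that of the longest genes, 2.25. Among long non-coding genes the median was 3.56 at 10 to 20 kb and 3.16 at 500 kb or more. Among the 7887 protein-coding genes above 1 FPM in all 12 libraries the medians ran from -2.07 at 1 to 5 kb to 2.01 at 500 kb or more, and across these genes, which share the same libraries and are not independent replicates, Spearman's rho between span and log2 fold change was 0.677 (0.179 over all 17674). Protein-coding genes without introns had a median of -1.79, with 226 of 348 higher in RiboTag and 43 in nuclear libraries, against 0.54 for 17326 genes with introns. A fragment from an intron counts for its gene here, and unspliced RNA was not measured apart from spliced RNA.

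**Figure D2:**
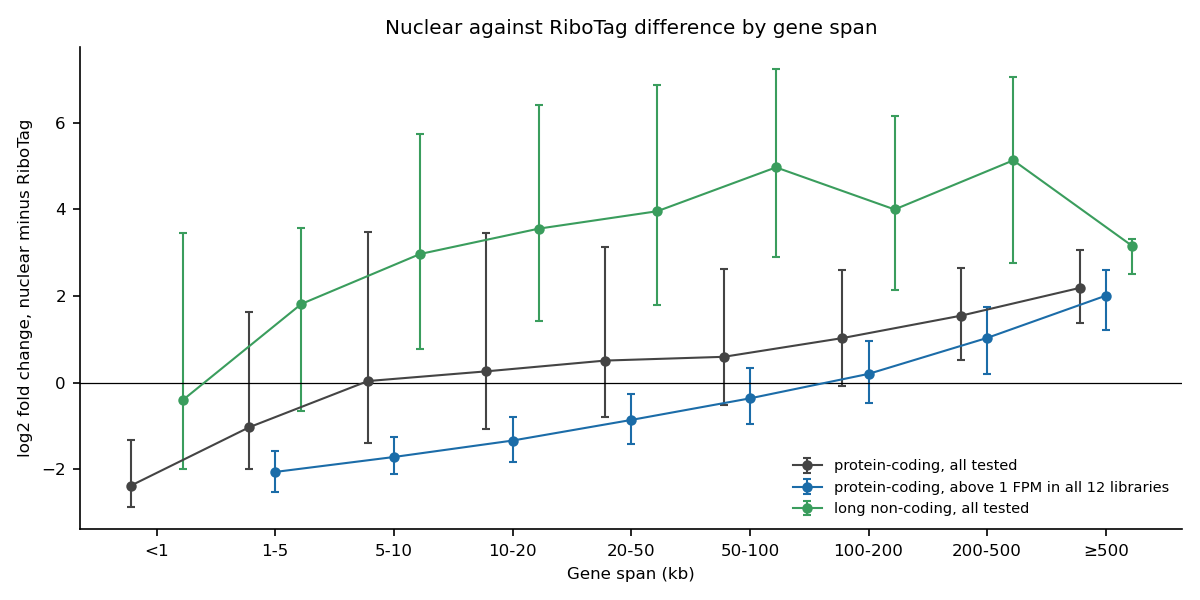
Median log2 fold change, nuclear minus RiboTag (y axis, TMM scale), by gene span in kb (x axis), with bars from the lower to the upper quartile, for protein-coding genes tested, those above 1 FPM in all 12 libraries, and long non-coding genes. Protein-coding medians climb from -1.03 at 1 to 5 kb to 2.19 at 500 kb or more, and library totals add 2.64 in the median.

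The 50 genes of the list of very long neuronal genes, mostly adhesion, receptor and channel genes of synapses, had a median of 2.03 and 48 were higher in nuclear libraries, 0 in RiboTag (50 and 0 with library totals). Nrg1, a neuregulin that signals through ErbB receptors (chromosome 8, 31814551 to 32884029, GRCm38), lay at 385, 595 and 1156 CPM (lowest, median and highest) in nuclear and at 29.0, 34.9 and 62.6 CPM in RiboTag libraries. Its log2 fold change was 4.07 ± 0.33 (SE, adjusted p = 1.87e-07), and the groups lay far apart. Fhit, a common fragile site gene, lay at 33.6, 63.4 and 98.3 CPM in nuclear and at 2.66, 3.66 and 5.03 CPM in RiboTag libraries (log2 fold change 4.12 ± 0.30, adjusted p = 8.95e-08). Like Fhit, the sarcoglycan gene Sgcz had nuclear levels many times those on ribosomes, with 188, 279 and 479 against 12.8, 17.9 and 29.3 CPM (3.95 ± 0.29, adjusted p = 9.99e-08). Csmd1, a complement-related membrane protein, had 420, 759 and 1278 against 68.9, 76.1 and 140 CPM (3.13 ± 0.31, adjusted p = 8.27e-07). The presynaptic adhesion gene Nrxn3 had 523, 860 and 1479 against 168, 189 and 240 CPM (2.18 ± 0.27, adjusted p = 6.26e-06). Tenm4, a teneurin, was nearer to the middle, with 177, 234 and 365 against 126, 143 and 155 CPM and still without overlap (0.76 ± 0.20, adjusted p = 0.00344).

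A few genes went against their length. Of 89 protein-coding genes of 200 kb or more that overlap no other gene and exceeded 1 FPM in all 12 libraries, 9 were higher in RiboTag libraries on the TMM scale, and the 2 furthest from 0, Btbd3 and Rab3c, were named after their values were seen. Btbd3, which directs dendrite orientation in cortical neurons, spans 332728 bases and lay at 9.15, 14.6 and 21.5 CPM in nuclear and at 33.9, 43.7 and 46.2 CPM in RiboTag libraries (log2 fold change -1.45 ± 0.19, adjusted p = 1.13e-05). The synaptic vesicle GTPase Rab3c, spanning 226810 bases, lay at 36.7, 56.0 and 81.9 against 148, 156 and 166 CPM (-1.40 ± 0.20, adjusted p = 1.91e-05). With library totals both had positive values, 1.27 and 1.18, below the median of all genes on that scale, 4.16. Of 568 such genes under 10 kb, 2 were higher in nuclear libraries, Rsrp1 (0.62 ± 0.22, adjusted p = 0.0188, with overlapping groups) and the apolipoprotein gene Apoe. Apoe, which astrocytes express strongly, lay at 10.9, 49.1 and 91.1 CPM in nuclear and at 4.50, 6.10 and 7.76 CPM in RiboTag libraries (3.02 ± 0.45, adjusted p = 3.14e-05).

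Of 16 nuclear long non-coding RNAs tested, 14 were higher in nuclear and 1 in RiboTag libraries, with a median of 2.51 (15 and 0 with library totals). Malat1, the abundant RNA of nuclear speckles (chromosome 19, 5795690 to 5802672), lay at 1485, 2380 and 4592 CPM in nuclear and at 277, 434 and 784 CPM in RiboTag libraries. It has no intron in the annotation, and its log2 fold change was 2.51 ± 0.36 (adjusted p = 2.56e-05), with no overlap. Meg3 and Mirg, imprinted non-coding RNAs of the Dlk1 domain, were higher too. Meg3 had 466, 746 and 1670 against 67.8, 109 and 194 CPM (2.83 ± 0.36, adjusted p = 7.48e-06), and Mirg, which hosts microRNAs, had 10.2, 15.8 and 42.7 against 0.399, 0.768 and 1.51 CPM (4.49 ± 0.40, adjusted p = 3.66e-07). Snhg14, the transcript across the Ube3a region, had 155, 230 and 409 against 38.3, 43.2 and 54.3 CPM (2.51 ± 0.25, adjusted p = 9.78e-07). The uncharacterised Gm28928, among the long non-coding genes with the highest fold change, had 29.0, 226 and 305 against 3.17, 5.24 and 8.12 CPM (5.21 ± 0.48, adjusted p = 5.22e-07).

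The exception in the list was Peg13, an imprinted RNA without introns, at 1.95, 5.83 and 15.1 CPM in nuclear and 44.2, 46.3 and 52.5 CPM in RiboTag libraries (-2.69 ± 0.43, adjusted p = 6.65e-05). 2900097C17Rik, the mouse Norad, a cytoplasmic RNA that binds Pumilio proteins, behaved likewise, with 4.38, 29.5 and 80.2 against 174, 192 and 197 CPM (-2.54 ± 0.56, adjusted p = 0.000952). Both stayed below 0 with library totals, at -0.47 and -0.47.

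Small RNAs of the nucleus and nucleolus were low in the ribosome libraries. The summed level of annotated small nucleolar RNA (snoRNA) genes was 102, 245 and 646 CPM (lowest, median and highest) in nuclear and 11.8, 14.2 and 16.8 CPM in RiboTag libraries. That of spliceosomal and other small nuclear RNAs was 49.8, 203 and 551 against 4.00, 4.87 and 8.63 CPM, and that of Cajal body RNAs was 13.5, 25.5 and 48.7 against 4.92, 5.97 and 7.45 CPM. None of these 3 classes overlapped between groups (exact permutation tests, two-sided, p = 0.00216 each, adjusted over 8 biotypes p = 0.00247). The sums of 4 other biotypes, miRNA, lincRNA, antisense and processed pseudogene, were higher in RiboTag libraries at the same p, with 643 to 9511 against 40430 to 47090 CPM for miRNA genes, and those of miscellaneous RNAs overlapped (exact permutation test, p = 0.556). The lincRNA sum, with a RiboTag median of 1119000 CPM, holds Gm42418 and AY036118, whose RiboTag medians were 555300 and 537100 CPM. By gene, 84.4% of 2686 lincRNA genes tested were higher in nuclear and 4.02% in RiboTag libraries. For antisense genes these shares were 51.3% and 21.7%, for processed pseudogenes 57.5% and 19.5%, and for miRNA genes 33.1% and 42.4%. Of 119 snoRNA genes tested, 113 were higher in nuclear and 0 in RiboTag libraries, as were 30 of 32 small nuclear and 12 of 13 Cajal body RNAs. All but 1 of the snoRNAs passed the filter through nuclei alone, which favours higher nuclear values. The filter was passed in both groups by 0 of the small nuclear RNAs, 1 Cajal body RNA and 160 lincRNA genes. It was passed in both by 507 antisense genes and 18 processed pseudogenes. Since 50 of the 119 snoRNAs had no count in any RiboTag library, their median log2 fold change is given in 2 ways. It was 6.78 as fitted. With such genes at their lower bound, set against 3 counts over the RiboTag group, it was 4.86.

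The 3 snoRNAs printed here lie inside ribosomal protein genes whose own values turn on them, and they were chosen after their values were seen. Capitals mark the letters TGATGA, the form of the C box looked for near the 5′ end, and the last CTGA, the D box, which together define the C/D class that guides 2′-O-methylation. Sequences are from the GENCODE M21 transcripts on GRCm38, 5′ to 3′: Snord15b at chr7:99479563-99479707 and Snord15a at chr7:99482785-99482932, both on the minus strand and inside Rps3, and Snord21 at chr5:107904555-107904648 on the plus strand inside Rpl5.
Snord15b: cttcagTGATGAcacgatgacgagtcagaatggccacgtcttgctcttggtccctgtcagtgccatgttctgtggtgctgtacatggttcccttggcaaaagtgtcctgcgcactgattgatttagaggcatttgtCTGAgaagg
Snord15a: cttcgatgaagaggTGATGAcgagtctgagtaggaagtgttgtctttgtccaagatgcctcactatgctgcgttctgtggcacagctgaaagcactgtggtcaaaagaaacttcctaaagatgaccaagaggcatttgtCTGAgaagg
Snord21: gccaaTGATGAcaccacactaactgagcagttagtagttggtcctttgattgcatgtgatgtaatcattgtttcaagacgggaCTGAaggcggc
Over all 1507 annotated snoRNA sequences, 26.1% hold TGATGA on their own strand and 1.39% on the opposite one, and 24.0% hold TGATGA followed by CTGA. Among the 119 tested, 42 (35.3%) hold TGATGA followed by CTGA, of which 39 were higher in nuclear libraries, as were 74 of the 77 others, so that nearly all were called with or without these letters.

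Snord15b lay at 7.41, 31.4 and 68.4 CPM in nuclear and at 0, 0.0311 and 0.0797 CPM in RiboTag libraries (log2 fold change 9.70 ± 0.73, adjusted p = 1.09e-07). Snord15a lay at 1.43, 5.40 and 10.7 CPM in nuclear libraries and had no count in any RiboTag library, which makes it at least 160-fold higher in nuclei against 3 counts over the RiboTag group. Snord21 lay at 2.21, 6.69 and 30.0 CPM against 0, 0.0710 and 0.119 CPM (7.25 ± 0.85, adjusted p = 3.74e-06). Since a fragment on a snoRNA was also counted for the gene around it, these levels enter those of Rps3 and Rpl5.

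Rps3, a protein of the small ribosomal subunit, was the 1 ribosomal protein gene called higher in nuclei, at 9.56, 42.2 and 84.0 CPM against 10.6, 11.9 and 13 CPM (1.81 ± 0.38, adjusted p = 0.000678). Its 2 snoRNA genes held 90.1% of its nuclear counts and 0.300% of its RiboTag counts. Without them Rps3 lay at 0.649, 2.63 and 6.43 CPM in nuclear and 10.6, 11.8 and 13 CPM in RiboTag libraries, with the direction turned (-1.95 ± 0.51, adjusted p = 0.00334) and no overlap. For Rpl5, a protein of the large subunit, the small RNA genes inside it held 43.0% of nuclear and 0.372% of RiboTag counts, and taking them off moved its log2 fold change from -0.91 to -2.05 (± 0.43, adjusted p = 0.00063). With all counts the call of Rpl5 was lost without nuclear library 2, 3, 4 or 6 or any 1 RiboTag library (adjusted p = 0.0603 to 0.133). Of 32 ribosomal protein genes that hold small RNA genes, the median moved from -1.21 to -1.60, and 22 were higher in RiboTag and 0 in nuclear libraries after the subtraction, an alternative added after the data were seen.

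**Figure D3:**
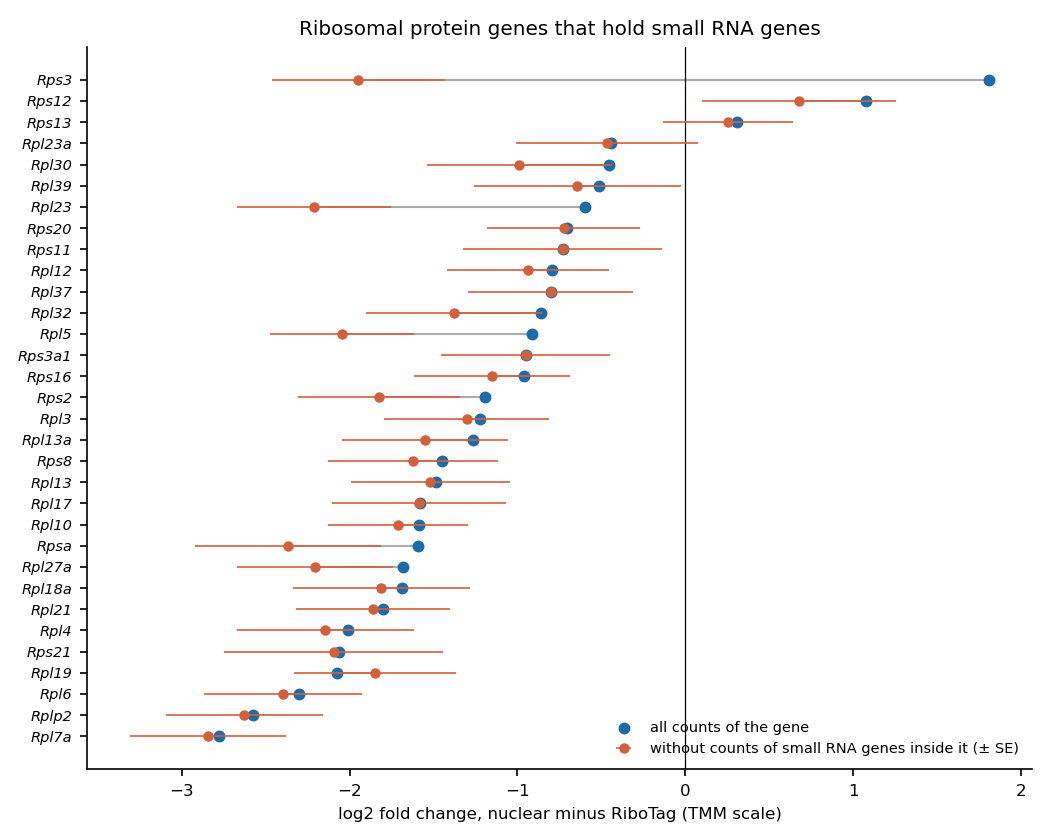
Log2 fold change, nuclear minus RiboTag (x axis, TMM scale), of 32 ribosomal protein genes that hold small RNA genes, with all counts (blue) and without the counts of the small RNA genes inside them (orange, ± SE). Rps3 moves from 1.81 to -1.95 and most other genes move little. Library totals add 2.64 in the median, which would place many of these genes above 0.

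Of 13 host genes of snoRNAs and related cytoplasmic RNAs tested, 7 were higher in nuclear and 1 in RiboTag libraries, with a median of 1.29 (12 and 0 with library totals). The nuclear count lies near the share over all genes tested, 53.5% (25.3% for RiboTag), and the median near theirs, 1.41. Of the 13, 11 passed the filter through nuclear libraries alone, which favours higher nuclear values. After the small RNAs inside the host genes were taken off, 2 were higher in nuclear libraries. For Snhg12 the counts on the overlapping genes inside it summed to 129.0% of its nuclear counts, so that its subtracted value cannot be read. Snhg1, which hosts 8 small RNA genes, had 3.37, 15.5 and 45.9 against 0.0596, 0.303 and 0.500 CPM (5.96 ± 0.63, adjusted p = 1.61e-06), but 99.0% of its nuclear counts lay on them, and without them it was not called (-0.56 ± 0.90, adjusted p = 0.575). Gas5, a host whose spliced RNA binds steroid receptors, kept its call, moving from 1.12 to 0.85 (adjusted p = 0.0394), with overlapping groups. Of 9 small structural RNAs, 6 were higher in nuclear and 1 in RiboTag libraries, with a median of 2.97 (8 and 0 with library totals). Rpph1, the RNA of RNase P, lay at 9.73, 167 and 345 CPM in nuclear and 19.3, 22.8 and 23.7 CPM in RiboTag libraries (2.96 ± 0.68, adjusted p = 0.00123). Its groups overlapped, as did those of Rn7sk, which holds back the elongation factor P-TEFb (2.06 ± 0.48, adjusted p = 0.00143). Rn7s1, the RNA of the signal recognition particle, went the other way, with 0.770, 24.6 and 87.4 against 126, 151 and 160 CPM (-2.01 ± 0.83, adjusted p = 0.0374). The call of Rn7s1 was lost without nuclear library 2 or 6 or any 1 RiboTag library (adjusted p = 0.05001 to 0.0777).

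The mRNAs of the protein synthesis machinery stood higher on ribosomes than in nuclei relative to the median of protein-coding genes. Of 82 ribosomal protein genes tested, 58 were higher in RiboTag and 1 in nuclear libraries, with a median of -1.36 (1 and 44 with library totals, median 0.88). Of 43 translation factors, 40 were higher in RiboTag and 0 in nuclear libraries, with a median of -1.75 (1 and 25 with library totals, median 0.62). Both medians lie below that of protein-coding genes, 0.51, and below that of those that passed the filter in both groups, -0.73. In these lists 77 of 82 and 42 of 43 genes passed it in both. The ribosomal protein genes had a median span of 3238 bases. Protein-coding genes of 1 to 5 kb above 1 FPM in all 12 libraries had a lower median, -2.07, with 93.5% higher in RiboTag libraries, so the list does not stand out among them. Rpl4, of the large subunit, lay at 2.40, 11.2 and 26.2 CPM in nuclear and 48.3, 51.3 and 53.8 CPM in RiboTag libraries (-2.01 ± 0.49, adjusted p = 0.00195), and Rps23, at the decoding centre, at 0.838, 3.36 and 11.1 against 31.1, 33.0 and 34.6 CPM (-2.87 ± 0.54, adjusted p = 0.000244). Rpl19 and Rpsa gave -2.07 ± 0.51 (adjusted p = 0.00206) and -1.59 ± 0.46 (adjusted p = 0.00612). Rpl22, the tagged protein in the RiboTag mice, lay at 1.41, 3.29 and 5.44 against 6.04, 7.22 and 7.67 CPM (-1.10 ± 0.30, adjusted p = 0.0044). With library totals Rpl4, Rpl19, Rpsa and Rpl22 turned to 0.13, 0.06, 0.59 and 1.32, while Rps23 stayed below 0 at -0.79.

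Among translation factors, Eef1a2, the neuronal form of the elongation factor that brings aminoacyl-tRNA to the ribosome, had 6.82, 25.7 and 64.8 CPM in nuclear and 222, 237 and 243 CPM in RiboTag libraries (-2.84 ± 0.47, adjusted p = 8.72e-05). Eef1a1 had a log2 fold change of -2.40 ± 0.58 (adjusted p = 0.00191) and Eef2, the translocase, -2.69 ± 0.51 (adjusted p = 0.000249). By contrast Eif3h, a subunit of the initiation factor 3, which spans 78966 bases, gave -0.46 ± 0.15 (adjusted p = 0.0126, 2.19 with library totals) with overlapping groups. Its call was lost without nuclear library 3 or 4 (adjusted p = 0.0454, with a value inside the fold limit, and 0.0541).

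Nuclear-encoded genes of the respiratory chain followed the same order. Of 77, 72 were higher in RiboTag and 0 in nuclear libraries, with a median of -1.83 (2 and 33 with library totals, median 0.50). The list had a median span of 7456 bases. Protein-coding genes of 5 to 10 kb above 1 FPM in all 12 libraries had a median of -1.72, with 94.2% higher in RiboTag libraries. The list does not stand out among them. Atp5b, the catalytic subunit of ATP synthase, lay at 6.47, 33.7 and 78.8 CPM in nuclear and 241, 268 and 284 CPM in RiboTag libraries (-2.82 ± 0.54, adjusted p = 0.000305). Atp5a1, its partner, gave -3.02 ± 0.51 (adjusted p = 9.5e-05) and Atp5o, of the stalk, -0.43 ± 0.15 (adjusted p = 0.0178, 2.19 with library totals), a call lost without nuclear library 3 or 4 (adjusted p = 0.0622 and 0.0609). The proteins encoded in mitochondria itself gave no one direction. Of 13 genes, 1 was higher in nuclear and 5 in RiboTag libraries (7 and 4 with library totals), with a median of 0.54 that lies next to that of protein-coding genes. mt-Nd2, of complex I, ranged from 8.07 through 84.3 to 280 CPM in nuclear libraries and lay at 21.0, 28.5 and 36.1 CPM in RiboTag libraries (1.98 ± 0.71, adjusted p = 0.0196), and was not called without nuclear library 1 (adjusted p = 0.0509). Without nuclear libraries 1, 5 and 6, which hold the most mitochondrial counts, its value was -1.30. mt-Atp6, of ATP synthase, was low in nuclei in every library, at 0, 0.440 and 1.40 against 46.7, 60.2 and 69.6 CPM (-6.81 ± 0.74, adjusted p = 2.15e-06).

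Genes of the cytoskeleton and protein folding had 2 of the 3 lowest list medians. Of 35 actin, tubulin and cytoskeleton genes 34 were higher in RiboTag and 0 in nuclear libraries, with a median of -2.52 (9 and 9 with library totals, median -0.33), and of 36 chaperone genes 36 and 0, with a median of -2.30 (3 and 8 with library totals, median 0.02). All 35 and all 36 passed the filter in both groups. Over all genes that did, 58.4% were higher in RiboTag and 20.0% in nuclear libraries. Tuba1c, an alpha tubulin, lay at 0, 0.475 and 0.823 CPM in nuclear and 12.9, 14.9 and 16.7 CPM in RiboTag libraries (-4.84 ± 0.34, adjusted p = 7.25e-08, -2.18 with library totals). The microtubule binding protein Map1b lay at 58.3, 177 and 401 against 768, 860 and 915 CPM (-2.04 ± 0.40, adjusted p = 0.000362, 0.22 with library totals), and Map2, of dendrites, gave -1.65 ± 0.29 (adjusted p = 0.00013, 0.77 with library totals). Hspa8, the constitutive Hsc70, lay at 13.5, 57.3 and 155 against 488, 536 and 566 CPM (-2.95 ± 0.52, adjusted p = 0.000141), and Hsp90ab1, an Hsp90, at 19.2, 88.4 and 238 against 733, 767 and 825 CPM (-2.84 ± 0.53, adjusted p = 0.000231). Both stayed below 0 with library totals, at -0.84 and -0.73.

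Of 17 clustered histone genes tested out of 65 listed, which have no introns in most cases and mRNAs without a poly(A) tail, 15 were higher in RiboTag and 1 in nuclear libraries, with a median of -2.44 (3 and 3 with library totals, median -0.25). Hist1h1c, a linker histone, lay at 0.162, 0.867 and 2.42 against 6.75, 7.82 and 9.92 CPM (-3.12 ± 0.53, adjusted p = 9.73e-05), and Hist1h2be, annotated over 37455 bases and overlapping other genes, gave 1.14 ± 0.23 (adjusted p = 0.000405). Of 21 genes of secretory granules and peptide processing, 16 were higher in RiboTag and 1 in nuclear libraries, with a median of -1.79 (6 and 9 with library totals, median 0.53). The filter was passed in both groups by 13 of the 17 histone genes and 20 of these 21. Over all genes that did, 58.4% were higher in RiboTag and 20.0% in nuclear libraries. Nts, the neurotensin precursor, lay at 0, 0.238 and 0.823 against 3.25, 8.96 and 12.2 CPM (-4.87 ± 0.47, adjusted p = 7.62e-07). Chgb, a granin, gave -2.24 ± 0.39 (adjusted p = 0.000118, 0.07 with library totals), and the convertase Pcsk2, a gene of 270130 bases, gave 0.57 ± 0.25 (adjusted p = 0.0441) with overlapping groups. The call of Pcsk2 was lost without nuclear library 1, 2 or 5 or any 1 RiboTag library (adjusted p = 0.0622 to 0.107).

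**Figure D4:**
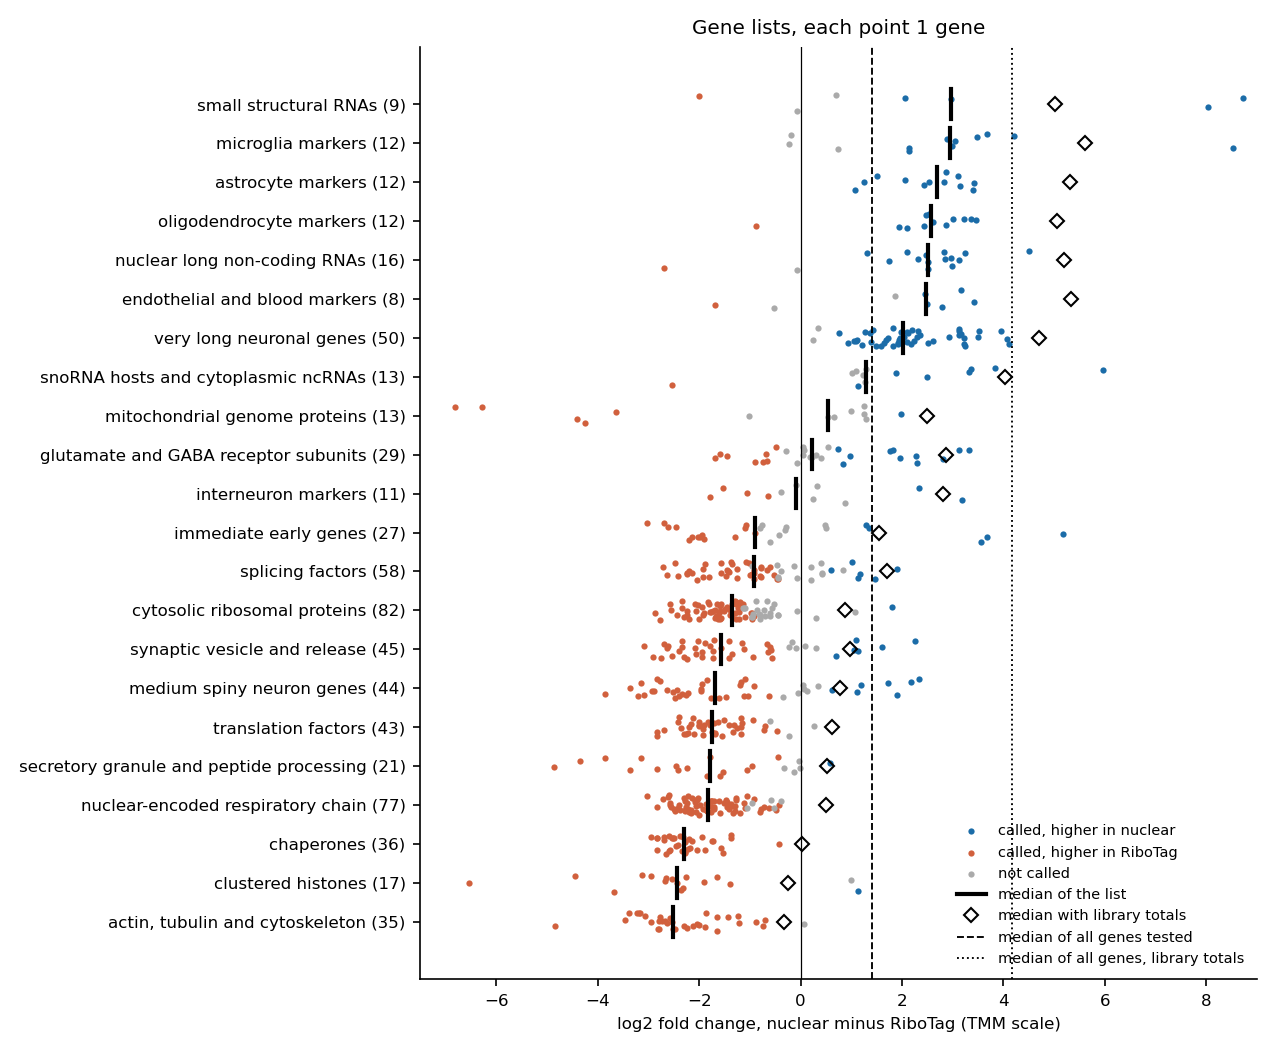
Log2 fold change, nuclear minus RiboTag (x axis, TMM scale), of each tested gene in the 22 gene lists (number tested in brackets), coloured by call, with 2 genes beyond the axis. Thick bars are list medians, diamonds the same with library totals, and vertical lines the medians of all genes on the TMM scale (dashed, 1.41) and with library totals (dotted, 4.16). Medians run from -2.52 for cytoskeleton genes to 2.97 for small structural RNAs on the TMM scale, and with library totals the lists that lie below 0 move to about 0 or above.

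The genes that define MSNs were mostly higher on ribosomes. Of 44 on the list, 31 were higher in RiboTag and 7 in nuclear libraries, with a median of -1.69 (7 and 24 with library totals, median 0.79). Of the 44, 43 passed the filter in both groups, and over all genes that did 58.4% were higher in RiboTag and 20.0% in nuclear libraries. Drd1 (chromosome 13, 54051183 to 54055705), a short gene, lay at 2.47, 8.14 and 12.9 CPM in nuclear and at 52.1, 62.2 and 79.1 CPM in RiboTag libraries, and every nuclear library lay below every RiboTag library (-3.09 ± 0.35, adjusted p = 2.76e-06). The peptide genes Pdyn and Tac1 went further. Pdyn lay at 2.10, 4.54 and 9.06 against 64.1, 70.4 and 93.1 CPM (-3.86 ± 0.32, adjusted p = 1.92e-07) and Tac1 at 1.81, 3.53 and 6.13 against 33.5, 37.9 and 39.5 CPM (-3.37 ± 0.26, adjusted p = 1.27e-07). These 3 stayed below 0 with library totals, at -0.73, -1.46 and -0.90.

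Markers of the other MSN type were present in the libraries of both methods. Penk lay at 19.2, 109 and 163 CPM in nuclear and 171, 384 and 462 CPM in RiboTag libraries (-1.84 ± 0.46, adjusted p = 0.00219, 0.46 with library totals), and Adora2a at 3.20, 8.78 and 12.5 against 9.83, 20.5 and 24.8 CPM (-1.18 ± 0.33, adjusted p = 0.00501, 1.28 with library totals). Drd2, which spans 67551 bases, was the 1 of these receptor and peptide genes that was higher in nuclei, at 19.9, 33.5 and 72.2 against 10.0, 17.2 and 21.8 CPM (1.20 ± 0.28, adjusted p = 0.00156), with 1 or more libraries overlapping. Per kilobase of exon the mean level of Drd1 was 2.07 CPM in nuclear and 17.6 CPM in RiboTag libraries, and that of Drd2 15.2 and 6.64 CPM, so that in the nuclear D1 libraries Drd2 stood above Drd1 on this scale. As 96.2% of Drd2 and 19.8% of Drd1 is intron, and intron fragments are in these counts, the exon scale favours Drd2.

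The phosphodiesterase Pde10a, a striatal gene of 461277 bases, lay at 233, 411 and 694 CPM in nuclear and 359, 424 and 534 CPM in RiboTag libraries and was not called (-0.05 ± 0.27, adjusted p = 0.872). The adenylyl cyclase Adcy5 gave -1.04 ± 0.27 (adjusted p = 0.00313, 1.45 with library totals), and Gnal, the G protein alpha subunit that couples Drd1 to it, lay at 44.5, 93.2 and 126 against 320, 348 and 379 CPM (-1.94 ± 0.25, adjusted p = 1.06e-05, 0.55 with library totals). Ebf1, a transcription factor of the D1 lineage spanning 390775 bases, lay at 15.0, 23.3 and 32.2 against 3.59, 4.41 and 6.40 CPM (2.33 ± 0.21, adjusted p = 3.86e-07).

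**Figure D5:**
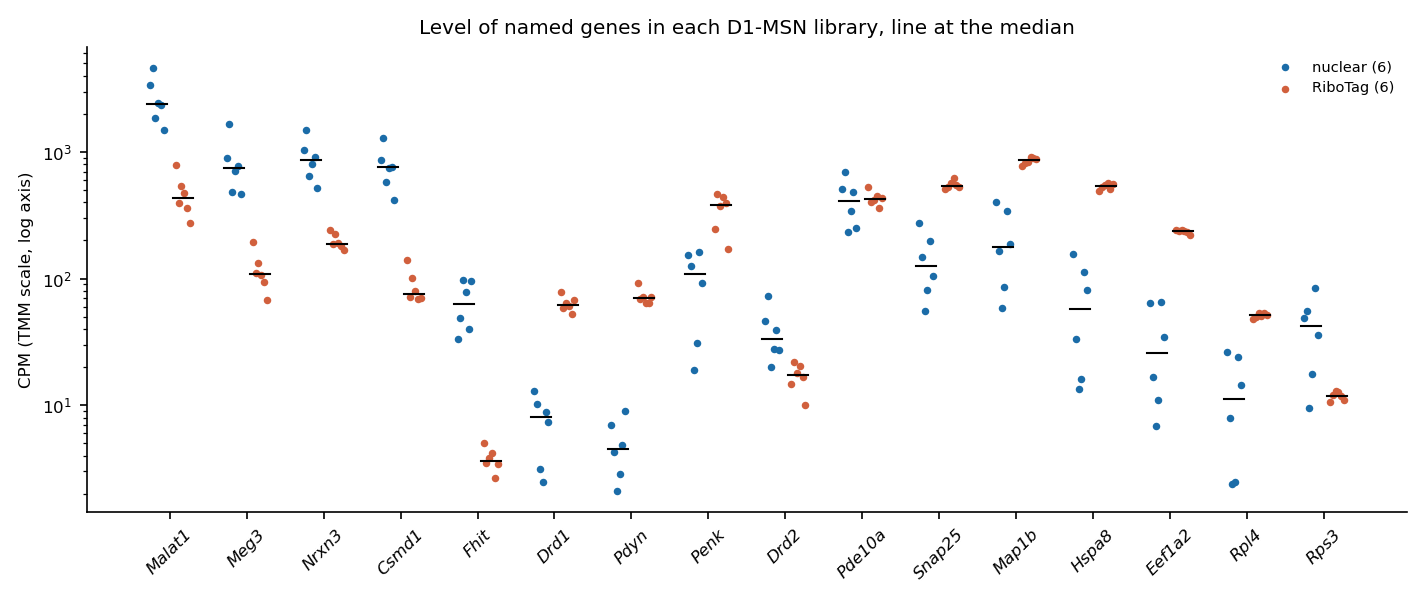
Level in CPM (y axis, log scale, TMM) of 16 named genes (x axis) in the 6 nuclear and 6 RiboTag libraries of D1-MSNs, with a line at each median. Drd1 lies at 2.47 to 12.9 CPM in nuclear and 52.1 to 79.1 CPM in RiboTag libraries, Csmd1 the other way at 420 to 1278 and 68.9 to 140 CPM, and Pde10a overlaps. With library totals, the log2 fold changes of Penk, Pde10a, Snap25, Map1b and Rpl4 turn above 0, and that of Pde10a alone is called.

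At the synapse, the median of release genes lay below that of receptor subunits. Their median spans were 60490 and 223500 bases, and the part of span in this difference was not tested. Protein-coding genes above 1 FPM in all 12 libraries had medians of -0.37 at 50 to 100 kb and 1.03 at 200 to 500 kb. All 45 release genes and 28 of 29 subunits passed the filter in both groups. Over all genes that did, 58.4% were higher in RiboTag and 20.0% in nuclear libraries. Of 45 genes of synaptic vesicles and release, 34 were higher in RiboTag and 6 in nuclear libraries, with a median of -1.57 (3 and 28 with library totals, median 0.97). Snap25, a SNARE, lay at 56.0, 126 and 274 against 507, 538 and 627 CPM (-1.94 ± 0.33, adjusted p = 0.000106, 0.43 with library totals). The vesicle GTPase Rab3a lay at 2.43, 9.99 and 29.0 against 106, 108 and 116 CPM (-3.08 ± 0.52, adjusted p = 0.000104), and Cplx2, a complexin, gave -2.69 ± 0.46 (adjusted p = 0.000117). The synapsin gene Syn3, of 443772 bases, lay the other way at 54.3, 61.9 and 98.7 against 10.9, 13.2 and 21.6 CPM (2.25 ± 0.205, adjusted p = 4.55e-07). Among 29 glutamate and GABA receptor subunits, 11 were higher in nuclear and 8 in RiboTag libraries (29 and 0 with library totals), with a median of 0.23. The NMDA receptor gene Grin2b gave -0.67 ± 0.26 (adjusted p = 0.0286, 1.89 with library totals), a call lost without nuclear library 3, 4 or 6 (adjusted p = 0.0569 to 0.0758), and the AMPA receptor gene Gria2 -0.74 ± 0.27 (adjusted p = 0.0198, 1.85 with library totals). Gria1 was not called (0.55 ± 0.27, adjusted p = 0.0725), and Grin2c, low in both methods, lay at 4.32, 6.60 and 8.19 against 0.25, 0.641 and 1.08 CPM (3.33 ± 0.32, adjusted p = 6.86e-07).

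Splicing factors act in the nucleus, and their mRNAs were mostly higher on ribosomes, as were most genes that passed the filter in both groups. Of 58 genes, 39 were higher in RiboTag and 6 in nuclear libraries, with a median of -0.93 (0 and 48 with library totals, median 1.71). Of these, 56 passed the filter in both groups. Over all genes that did, 58.4% were higher in RiboTag and 20.0% in nuclear libraries, and the protein-coding ones had a median of -0.73. Hnrnpa3, an hnRNP protein, lay at 5.96, 8.59 and 17.8 against 62.5, 68.3 and 74.8 CPM (-2.70 ± 0.27, adjusted p = 8.9e-07), and the helicase Ddx5 at 38.2, 72.8 and 103 against 193, 221 and 228 CPM (-1.57 ± 0.23, adjusted p = 3.24e-05, 0.99 with library totals). Clk1, a kinase of SR proteins whose transcripts are known to be held in the nucleus with introns in place, lay at 9.06, 16.6 and 30.7 against 3.42, 4.66 and 5.97 CPM (1.91 ± 0.25, adjusted p = 1.09e-05).

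Immediate early genes, which neurons switch on within minutes of activity, were divided. Of 27 tested, 14 were higher in RiboTag and 5 in nuclear libraries, with a median of -0.90 (1 and 16 with library totals, median 1.55). The filter was passed in both groups by 18 of the 27 and through nuclear libraries alone by 9. Over all genes that passed in both, 58.4% were higher in RiboTag and 20.0% in nuclear libraries. The median of the protein-coding ones was -0.73, near that of this list. Jund lay at 0.567, 2.28 and 5.32 against 19.6, 21.1 and 26.6 CPM (-3.03 ± 0.43, adjusted p = 2.2e-05, -0.76 with library totals). Egr1 gave -2.03 ± 0.47 (adjusted p = 0.00127, 0.14 with library totals) with overlapping groups, and the clock gene Per1 -0.90 ± 0.22 (adjusted p = 0.00204, 1.59 with library totals). Atf3, a stress-induced factor close to the smallest measurable level in RiboTag libraries, lay at 0.163, 1.80 and 3.3 against 0, 0.0298 and 0.159 CPM (5.18 ± 0.88, adjusted p = 0.000105).

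The 10 lowest log2 fold changes among called protein-coding genes above 1 FPM in all 12 libraries included genes of metabolism and of imprinted loci. Dlk1, an imprinted Notch-type ligand of the domain that also holds Meg3 and Mirg, lay at 0.728, 1.42 and 5.01 CPM in nuclear and 32.8, 36.3 and 41.2 CPM in RiboTag libraries (-4.32 ± 0.37, adjusted p = 2.98e-07). Pgam1, a glycolytic enzyme, gave -4.02 ± 0.46 (adjusted p = 3.05e-06) and the retrotransposon-derived Peg10 -3.92 ± 0.69 (adjusted p = 0.000152). These 3 also stayed below 0 with library totals, from -1.81 to -1.73. Long genes with very high levels in RiboTag libraries were among them too. Arhgap21 lay at 52.5, 166 and 396 against 15450, 20720 and 23060 CPM (-6.79 ± 0.67, adjusted p = 9.53e-07), and Gphn at 166, 628 and 1537 against 14520, 15520 and 16140 CPM (-4.40 ± 0.63, adjusted p = 2.37e-05). Cmss1 and Filip1l, which overlap on opposite strands of chromosome 16, had equal RiboTag levels, both from 86440 to 96610 CPM with -3.60 ± 0.82 (adjusted p = 0.00123 and 0.00124), so that strandless counting cannot divide their fragments. CT010467.1, Gm42418 and AY036118 had log2 fold changes of -3.09 ± 1.22, -3.14 ± 1.17 and -3.14 ± 1.16 (adjusted p = 0.0294, 0.0235 and 0.0228). Without nuclear library 5 none of the 3 was called (adjusted p = 0.0639, 0.054 and 0.0526), nor was CT010467.1 without RiboTag library 3, 4, 5 or 6 (adjusted p = 0.0514 to 0.0553).

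Markers of other cell types were present in both methods, and those of astrocytes, oligodendrocytes and microglia were mostly higher in nuclei. Of 12 astrocyte markers, 12 were higher in nuclear and 0 in RiboTag libraries, with a median of 2.68, and their summed level ranged from 302 to 728 CPM in nuclear and from 159 to 198 CPM in RiboTag libraries. Of 12 oligodendrocyte markers, 11 and 1 were higher in nuclear and RiboTag libraries, with summed levels of 166 to 440 and 83.3 to 106 CPM. Of 12 microglia markers the counts were 9 and 0, and of 8 endothelial and blood markers 5 and 1 (53.5% and 25.3% over all genes), with sums of 12.5 to 42.1 and 4.61 to 8.05 CPM. With library totals 12, 12, 12 and 6 of them were higher in nuclear libraries and 0 in RiboTag, and 9, 8 and 9 of the astrocyte, oligodendrocyte and microglia markers passed the filter through nuclear libraries alone, which favours higher nuclear values. None of these lists had a member at 0 in all 12 libraries. Slc1a2, the glial glutamate transporter, lay at 147, 199 and 492 against 97.0, 111 and 130 CPM (1.25 ± 0.29, adjusted p = 0.0013). The gap junction gene Gja1, more strictly of astrocytes, lay at 5.84, 9.18 and 15.2 against 0.417, 0.842 and 1.43 CPM (3.42 ± 0.33, adjusted p = 8.66e-07). Of the myelin genes, which both overlap other genes, Mbp gave 2.10 ± 0.24 (adjusted p = 2.85e-06), and Cnp gave -0.89 ± 0.27 (adjusted p = 0.00897, 1.51 with library totals).

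Of the microglia markers, the receptor Csf1r gave 2.14 ± 0.22 (adjusted p = 1.23e-06) and Cx3cr1 was not called (-0.19 ± 0.12, adjusted p = 0.149), and both overlap other genes. The vascular receptor Flt1 gave 2.45 ± 0.41 (adjusted p = 9.71e-05). Of 11 interneuron markers, 4 were higher in RiboTag and 2 in nuclear libraries, with a median of -0.08 (0 and 9 with library totals), and Sst, somatostatin, lay at 1.46, 7.26 and 9.94 against 16.9, 20.8 and 23.5 CPM (-1.79 ± 0.39, adjusted p = 0.000827, 0.53 with library totals). In such bulk libraries fewer cells of a type and less RNA per cell cannot be told apart, and the part of these markers in the differences above was not tested.

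In D2-MSNs the nuclear minus RiboTag value was lower for each of the 4 lists given here. In a fit of all 23 libraries, 33289 genes were tested for a difference between cell types in the nuclear minus RiboTag value, and 5798 (17.4%) had a higher value in D1-MSNs and 656 (1.97%) in D2-MSNs. With genes above 1 FPM in all 23 libraries these counts were 1956 and 1696, and with DESeq2 2354 genes had a higher value in D2-MSNs. Estimated background was 32.1 to 51.4% of counts in the 5 nuclear D2 libraries, against 0.530 to 21.97% in the nuclear D1 libraries, and its part in these differences was not tested beyond its subtraction, which left 3430 and 1311 genes. Without nuclear D1 library 1 the first count was 3385 and without any 1 of 8 RiboTag libraries (D1 libraries 2, 4, 5 and 6 and D2 libraries 3 to 6) it was 3660 to 3843. The second count was 1430 without nuclear D1 library 3 and 1282 without library 6. The median of the ribosomal protein list was -1.29 in D1- and -3.95 in D2-MSNs, and 72 of its 83 genes tested had a higher value in D1-MSNs, 0 in D2-MSNs. For the respiratory chain the medians were -1.76 and -3.39, for MSN genes -1.64 and -3.05, and for very long neuronal genes 2.10 and 1.23. The medians of all genes in that fit were 2.38 in D1- and 2.62 in D2-MSNs, and those of protein-coding genes 1.00 and 1.09. In both cell types very long genes lay above the protein-coding median but below that of all genes, and the other 3 lists lay below both.

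For Penk the types differed by 5.86 ± 0.66 (adjusted p = 1.6e-05), with log2 fold changes of -1.79 in D1- and -7.66 in D2-MSNs. Its mean level in that fit was 116 ± 72.5 CPM (SD, n = 6) in nuclear D1 and 9.91 ± 5.69 CPM (SD, n = 5) in nuclear D2 libraries, against 401 ± 132 CPM (SD, n = 6) in RiboTag D1 and 2000 ± 135 CPM (SD, n = 6) in RiboTag D2 libraries. The D2 peptide was thus lower in the nuclear libraries labelled D2 than in those labelled D1, and so was Adora2a, at 4.27 ± 0.550 (SD, n = 5) against 9.93 ± 4.95 CPM (SD, n = 6), while both were higher in RiboTag D2 libraries. Lower nuclear D2 levels were not limited to these markers. Rpl4 and Hspa8 had means of 1.65 and 5.81 CPM in nuclear D2 against 15.4 and 82.4 CPM in nuclear D1 libraries. Fhit went the other way, at 138 against 79 CPM. The part of such shifts in the marker values was not tested. The mean of Drd2 followed the labels in both methods. It was 46.6 ± 22.2 (SD, n = 6) and 72.0 ± 23.7 CPM (SD, n = 5) in nuclear D1 and D2 libraries. In RiboTag D1 and D2 libraries it was 19.5 ± 4.92 and 129 ± 13 CPM (SD, n = 6 each). The spreads overlap in nuclei, where the types were not compared by a test. Drd1 followed the labels too, at 8.99 ± 4.99 (SD, n = 6) and 1.22 ± 0.403 CPM (SD, n = 5) in nuclear D1 and D2 libraries. Its nuclear minus RiboTag value was not called different between types (0.96 ± 0.43, adjusted p = 0.131). Since nuclear D2 libraries go against their label for Penk and Adora2a, directions drawn from them hold for the libraries labelled D2.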

How the data were processed

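The authors made the counts by aligning paired-end, ribo-depleted total RNA reads (SMARTer Stranded) with HISAT2 2.0.5 to the mouse genome GRCm38 and counting fragments with featureCounts over whole genes, introns included. Strand was ignored, a fragment on overlapping genes was counted for each of them, and multi-mapped fragments were dropped. These counts are deposited without normalization, 1 column per library. Of the deposited columns 26 were not used here. Positions and biotypes came from GENCODE M21, which matched 52489 of 52636 genes, and 5164 genes had no count in the 12 libraries.

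Genes above 1 FPM in at least 2 of 12 libraries were fitted on the counts with edgeR 4.0.16 (R 4.3.3, limma 3.58.1), with TMM scaling and the quasi-likelihood test, without covariates, and p-values were adjusted by Benjamini-Hochberg over all genes tested. The SE of a log2 fold change was taken from its F statistic. The difference between cell types was the interaction term of a fit of 23 libraries. Shares of counts were compared by exact permutation tests with SciPy 1.17.1. Replicates are different mice, and no pair of libraries agreed within sampling noise. The scripts were tested on simulated data with known changes.

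Named genes were the 10 highest and 10 lowest protein-coding and the 5 highest and 5 lowest long non-coding fold changes among called genes above 1 FPM in all 12 libraries, the 5 genes with the highest share of counts in each group, the 4 most abundant members and the highest and lowest called member of each list, the 5 lowest adjusted p of the interaction in each direction, and markers of D1- and D2-MSNs, of which the text gives a part. The values of some named genes are not reported here. Snord15a, Snord15b, Snord21, Btbd3, Rab3c, Rsrp1 and Apoe were chosen after their values were seen. The members and lists were chosen with earlier results of these data known. Alternatives were DESeq2 1.42.0, other scalings and filters, background subtraction, leaving out overlapping genes or single libraries, all 23 libraries in 1 fit and the replicate number as a block. Leaving out the nuclear libraries of high background (3, 4 and 6) or of high chromosome 17 share (1, 5 and 6) and subtracting small RNA genes were added after seeing the data.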

Additional observations from a re-analysis of the deposited data

Results flagged for a closer look

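In 210 groups of libraries checked for a library far from the rest, 13 were found, and chance gives about 1 in 20. In nuclear library 2 Meg3 lay at 1670 CPM, Mirg at 42.67 CPM and Syn3 at 98.65 CPM. In nuclear library 5 the small RNA loci Snhg1 and Snord21 lay at 45.94 and 29.98 CPM. In nuclear library 6 Dlk1 lay at 5.008 CPM and Peg10 at 17.63 CPM. In RiboTag library 1 Eef1a1 was low at 126.7 CPM, while Nrg1 at 62.61 CPM, Pdyn at 93.08 CPM and Syn3 at 21.64 CPM were high. In RiboTag library 3 Jund was high at 26.63 CPM, and in RiboTag library 6 Btbd3 was low at 33.91 CPM.

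The nuclear minus RiboTag difference itself was called different between cell types for 5798 and 656 genes, and 10 of them are given here. It was higher in D1-MSNs, as D1 minus D2 on the log2 scale, for Penk by 5.864, for Adora2a by 3.646, for Drd2 by 2.095, for Ndnf, a secreted neurotrophic factor, by 4.255 ± 0.30 (SE, adjusted p = 4.024e-09) and for the serotonin receptor Htr2c by 2.356 ± 0.26 (adjusted p = 1.269e-05). It was lower in D1-MSNs for Pdyn, with -1.283 ± 0.34 (adjusted p = 0.006341), Scube1 with -2.521, Cadps2 with -1.682, Fmn1 with -1.73 and the non-coding Gm15270 with -4.54. For Gm15270 the log2 fold changes were -1.42 in D1- and 3.12 in D2-MSNs. The nuclear D2 libraries had an estimated background of 32.07 to 51.37% of counts, and its part in these differences was not tested beyond its subtraction.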

How the results depend on the processing

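Depth limits low genes, since 3 counts came to 0.4836 CPM in the shallowest nuclear library, and high-background libraries limit statements on genes near 0 in nuclei. List values here are list medians minus that of protein-coding genes, and the cause of each change was not tested unless the setting's own construction gives it. With library totals 23532 genes were higher in nuclear and 251 in RiboTag libraries, the mitochondrial genome list moved from 0.0316 to -0.737, and log2 fold changes below 0 turned above it for Rpl5 (1.358), Rpl4 (0.129), Rpl19 (0.055), Rpsa (0.590), Rpl22 (1.32), Eif3h (2.185), Atp5o (2.193), Btbd3 (1.267), Rab3c (1.176), Penk (0.459), Adora2a (1.275), Pde10a (2.534), Adcy5 (1.446), Gnal (0.552), Snap25 (0.432), Grin2b (1.892), Gria2 (1.853), Ddx5 (0.990), Map1b (0.221), Map2 (0.775), Chgb (0.0713), Egr1 (0.137), Per1 (1.586), Cnp (1.506), Cx3cr1 (2.529) and Sst (0.526). With genes above 1 FPM in all 12 libraries 3156 and 3217 of 8590 were called, the snoRNA host list moved from 0.785 to -1.894 and the receptor subunit list from -0.281 to 0.931, and Eif3h (0.308), Atp5o (0.330), Pde10a (0.666), Grin2b (0.0446) and Cx3cr1 (0.616) turned. Without overlapping genes 6124 and 2320 of 10689 were called, the host list came to -3.336, the mitochondrial list to -1.881, and nuclear minus RiboTag shares to 1.75 for protein-coding, 0.767 for small non-coding and 6.283 for intronless genes. Without nuclear libraries 3, 4 and 6, 6814 genes were higher in nuclear libraries, the receptor list came to 0.619 and Pde10a to 0.493. Without nuclear libraries 1, 5 and 6 the mitochondrial list came to -3.47 and mt-Nd2 to -1.301. DESeq2 gave -0.0125 for the mitochondrial list, 0.178 for Pde10a, 0.0682 for Cx3cr1 and 2354 genes higher in D2-MSNs. Its size factors gave -0.0101, 0.178, 0.0686, and 3297 and 1425 interaction calls. Totals without the highest genes gave -0.0827, 0.285 and 0.226. Without a filter the mitochondrial list came to -0.536 and the difference between the medians of protein-coding genes of at least 500 kb and of 1 to 5 kb fell from 3.219 to 0.247. All 23 libraries in 1 fit gave -0.406 for the mitochondrial list, 0.0144 for Pde10a and 0.414 for that difference. Background subtraction gave 0.110 for the receptor list, 0.189 for Pde10a, and 3430 and 1311 interaction calls, and a filter over all 23 libraries 1956 and 1696. Subtracting small RNA genes gave -0.558 for Snhg1 and -1.947 for Rps3. Without the highest genes the shares differed by -6.59 (protein-coding), 2.753 (long non-coding), 1.117 (small non-coding), 2.608 (intronless) and 1.897 (mitochondrial, no longer past the threshold). Same-numbered libraries come from different mice and their deviations correlated by -0.216 to 0.0892, so the replicate numbers do not pair them. The replicate block gave 13241 and 6577 calls and -1.189 for the mitochondrial list, and for the interaction it was not run. Leaving out single libraries gave 3385 to 6536 and 496 to 1430 interaction calls, -0.529 to 0.543 for the mitochondrial list (below 0 without nuclear library 1, 5 or 6 or RiboTag library 6), -0.389 to 0.0273 for the receptor list (above 0 without nuclear library 3) and -0.202 to 0.131 for Pde10a.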
